A study of Mus musculus with 6 samples.

Results

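A group of 10 long noncoding RNA genes was read from the table of 24348 genes by symbol, and all 10 were present: Malat1, Neat1, Meg3, Rian, Mirg, H19, Kcnq1ot1, Gas5, Snhg1 and Mir22hg. Total RNA was sequenced from fibroblasts that flow cytometry had separated out of the synovium, the tissue lining the joints, of adult wild-type C57BL/6 mice. There were 3 libraries from mice given immune complexes (IC) into a vein and 3 from control mice given vehicle, and the labels do not say whether a library came from 1 mouse, so p-values measure the spread between these libraries. By the study's methods the ICs were ovalbumin bound by rabbit anti-ovalbumin antibodies, and the labels give no dose, time after injection or age. The question was whether these RNAs differed after ICs reached the circulation.

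Long noncoding RNAs are transcripts that are not translated into a protein, and many act where they are made, in the nucleus. Malat1 gathers at nuclear speckles, which store splicing factors, and Neat1 is the scaffold around which paraspeckles are built. Meg3, Rian, Mirg, H19 and Kcnq1ot1 are imprinted, that is, transcribed from the copy inherited from one parent, and several of them are precursors of microRNAs or silence genes beside them. Gas5 and Snhg1 carry small nucleolar RNAs (snoRNAs), the guides of ribosomal RNA modification, in their introns, and Mir22hg is the precursor of miR-22.

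The sequences that tell these RNAs apart are shown first. Malat1 (chr19:5795690-5802672, minus strand, GRCm38) and Neat1 (chr19:5824708-5845478, minus strand) are neighbours 22.0 kb apart, each annotated in GENCODE M21 as an unspliced transcript over its whole span. Malat1 and the long form of Neat1, from which the Neat1 sequence below was taken, are known to end in an A-rich tract in place of a poly(A) tail. The tract is held in a triple helix by U-rich stretches. The last 100 bases up to that tract are given as DNA, read from the annotated transcripts, with the stretches of at least 10 bases that occur in both windows in capitals.
Malat1, chr19:5795982-5796081: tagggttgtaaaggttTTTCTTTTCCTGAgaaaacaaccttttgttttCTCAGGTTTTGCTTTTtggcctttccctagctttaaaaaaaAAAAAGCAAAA
Neat1, chr19:5824708-5824807: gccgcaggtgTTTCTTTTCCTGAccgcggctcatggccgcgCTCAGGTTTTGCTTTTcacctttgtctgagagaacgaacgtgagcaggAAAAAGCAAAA
The windows shared 3 stretches in the same order, 13, 16 and 11 bases long, the last being the tract AAAAAGCAAAA, which each transcript held once. The Malat1 tract lay 292 bases before the annotated end of its unspliced transcript, and that of Neat1 lay at the annotated end. Of 30216 annotated long noncoding transcripts of at least 100 bases, 10 (0.0331%) held AAAAAGCAAAA in their last 100 bases, read on the transcript's strand. Total RNA libraries do not select for a poly(A) tail.

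The microRNAs inside these genes show what else the transcripts carry. RefSeq lists 39 mature microRNAs from 21 loci within 5 of the genes, with 26 of them in Mirg, and 38 different seeds among the 39. The seed, bases 2 to 8, which pairs with target mRNAs, is in capitals below (RefSeq, GRCm38.p6). The first pair comes from an exon of H19 and the next from an exon of Mir22hg. The last pair, from Mirg, holds the 1 seed that occurred more than once.
miR-675-5p, chr7:142577112-142577133: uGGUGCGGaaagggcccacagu
miR-675-3p, chr7:142577078-142577099: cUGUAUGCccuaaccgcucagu
miR-22-5p, chr11:75463734-75463755: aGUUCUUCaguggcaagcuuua
miR-22-3p, chr11:75463772-75463793: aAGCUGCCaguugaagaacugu
miR-453, chr12:109735669-109735692: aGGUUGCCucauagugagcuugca
miR-496a-5p, chr12:109739132-109739152: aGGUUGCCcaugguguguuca
All 39 lie on the strand of their host gene. The counts below are of the long host transcripts, and mature microRNAs were not analysed here.

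Gas5 overlaps 10 annotated snoRNA genes and Snhg1 overlaps 8. Box C/D snoRNAs are named for the boxes by which proteins bind them, and 2 of those in Gas5 are printed below. The first TGATGA, the letters of box C, and the last CTGA, those of box D, are in capitals. They were found by these letters alone, and whether each is the box in use was not checked.
Snord47: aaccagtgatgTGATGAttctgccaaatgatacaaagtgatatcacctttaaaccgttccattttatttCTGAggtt
Snord80: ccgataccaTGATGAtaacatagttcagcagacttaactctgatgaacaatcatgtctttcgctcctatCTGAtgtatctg
Many such host genes begin with a C and a run of pyrimidines, the 5′ terminal oligopyrimidine tract by which translation of ribosomal protein mRNAs is set. RefSeq's promoter table (GRCm38.p6) has 2 starts for Gas5, of which the downstream one begins so, and 1 for Snhg1. The first 30 bases are given with the opening pyrimidine run in capitals.
Gas5, chr1:161035166-161035195: CTTTCggagctgtgcggcattctgagcagg
Snhg1, chr19:8723487-8723516: CTCatttttccttgttcggggtaagtactc
The run was 5 bases in Gas5 and 3 in Snhg1. A C followed by 4 more bases that are all C or T opened 823 of 32851 starts in that table (2.51%). Of the 10 genes, 8 had an entry there, and H19 and Neat1 were the other two.

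Depth and the state of the libraries bear on every value. Total counts ranged from 40114331 to 56714304 per library and overlapped between groups. Vehicle replicate 1 stood apart. Its chi-square over 13435 genes, divided by its degrees of freedom, was 45.65 and 76.66 against the other vehicle libraries, where these gave 24.92 against each other and pairs of IC libraries 16.05 to 35.12. It was the highest vehicle library for 8 of the 10 genes, against 35.2% of all genes tested. Vehicle replicate 2 was the lowest of the 6 libraries for 7 of the 10 genes, a share not computed for all genes. Results are given with and without vehicle replicate 1. Since the values of these same genes helped to single it out, calls made without it are no separate support. The 11 mitochondrially encoded genes of the list found in the table summed to 4000 to 4980 CPM (counts at a library total of 1000000) after IC and 5260 to 6260 after vehicle, without overlap. Of the 10 tested, mt-Co1 was called lower by DESeq2, against 1.07% of all genes. The 4 tested genes of the list related to ribosomal RNA summed to 27600 to 29500 and 25900 to 35200 CPM. None of those 4 was called by DESeq2 or edgeR. An unadjusted p under 0.05 was given to 2 by each tool, against 9.8% of all genes by DESeq2 and 9.64% by edgeR. Gm42418 and Gm23935 lay lower in every IC library than in any vehicle library. Of all genes, 15.8% did not overlap between groups in either direction. The part of these values in the results was not tested. Among the fibroblast markers Col1a1 averaged 667700 ± 15200 normalized counts in IC and 724600 ± 104000 in vehicle libraries (SD over n = 3). Markers of muscle precursor, endothelial and mural cells were also detected, and their values stand beside H19 below. In bulk samples, fewer cells of a type and less RNA per cell cannot be told apart.

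The 10 genes together took 2.35% to 3.51% of all counts in a library. Malat1 alone took 2.151% to 3.001%, which ranked it second of all genes by counts. Per length, it had 3752 ± 446.5 counts per kilobase of exon, with each library scaled to 1000000 counts (mean ± SD over the 6 libraries), ranking 4 of 23899 genes with an annotated length. On the same scale Neat1 had 95.2 ± 49.4 and ranked 289. The gap between them differed by group, with 4013 for Malat1 and 132.5 for Neat1 in IC libraries and 3490 and 58.01 in vehicle libraries, where the mean of H19 was 59.09.

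**Figure D1:**
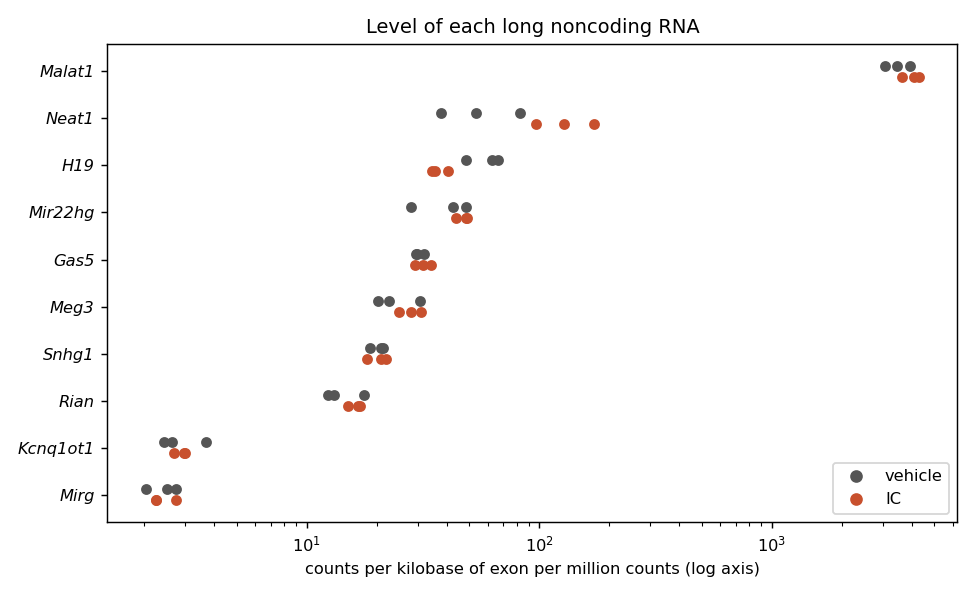
Level of each gene in each of the 6 libraries, in counts per kilobase of exon at 1000000 counts per library on a log axis, with vehicle libraries in grey and IC libraries in orange. Malat1 lay at 3080 to 4300 in every library, above Neat1 at 37.8 to 172, and Mirg lay lowest at 2.03 to 2.73.

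By the mean over all 6 libraries the order below these was H19, Mir22hg, Gas5, Meg3, Snhg1, Rian, Kcnq1ot1 and Mirg. The ranges of neighbours in this order overlapped for 6 of 9 pairs. Those that did not overlap were Malat1 and Neat1, Snhg1 (18.2 to 21.9) and Rian (12.3 to 17.6), and Rian and Kcnq1ot1 (2.43 to 3.69). H19 exceeded Mir22hg in the 3 vehicle libraries, at 48.36 against 48.34 in vehicle replicate 1, and lay below it in the 3 IC libraries, while Meg3 exceeded Snhg1 in all 6 although their ranges overlapped. The exon length of Malat1, Neat1, Kcnq1ot1 and Snhg1 equals the whole gene span, since an annotated transcript covers it, which lowers the level per kilobase where shorter forms are the main ones.

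Each gene was compared between IC and vehicle with DESeq2 fitted to 19925 genes, and Benjamini-Hochberg adjustment covered the 16055 of them that passed its independent filter and count checks. H19 was lower after IC, and it was the 1 gene of 10 called at an adjusted p under 0.05. Across all genes 2.10% were called, 1.03% higher and 1.07% lower. Neat1 had the largest fold change of the 10 but missed the threshold. By edgeR's quasi-likelihood test none of the 10 was called, against 0.186% of all genes, and 3 of the 10 (Malat1, Neat1 and H19) had an unadjusted p under 0.05 by each tool, against 9.8% of all genes by DESeq2 and 9.64% by edgeR. The groups did not overlap for 2 genes, Neat1 and H19, against 15.8% of all genes. The log2 fold changes were positive for 6 and negative for 4, with a median of 0.113 against -0.002 for all genes.

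**Figure D2:**
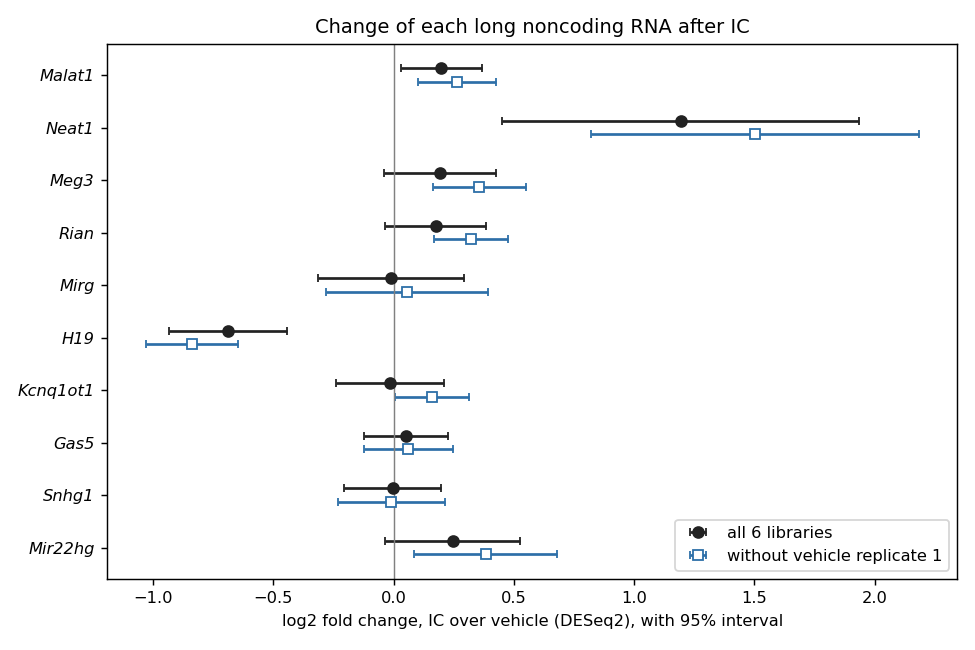
Log2 fold change of IC over vehicle for each gene, with its 95% interval, from all 6 libraries (filled circles) and without vehicle replicate 1 (open squares). H19 lay wholly below 0 in both fits at -0.69 and -0.84, and Neat1 lay highest at 1.19 and 1.5.

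H19, a maternally expressed RNA of fetal and repairing tissue and the precursor of miR-675 shown above, lies at chr7:142575529-142578143 on the minus strand. Its normalized counts, that is counts divided by the size factor, were 4209, 4040 and 4808 in IC replicates 1, 2 and 3 and 5532, 8018 and 7533 in vehicle replicates 1, 2 and 3. Every vehicle library lay above every IC library, and vehicle replicate 1 was the nearest to them. It averaged 4352 ± 403 in the IC libraries and 7027 ± 1318 in the vehicle libraries (SD, n = 3 each). The log2 fold change was -0.69 ± 0.13 (SE), with a 95% interval of -0.936 to -0.445 and the adjusted p in DESeq2 was 1.365e-05. The call was lost in other tests, with an adjusted p of 0.0593 by edgeR and 0.0547 by limma-voom at nearly the same fold change. H19 was called by DESeq2 in all 6 fits that left out 1 library, with log2 fold changes of -0.84 to -0.58, the largest fall being without vehicle replicate 1.

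H19 is abundant in muscle precursor cells, so their markers were read beside it. All 12 myogenic (satellite) cell markers had a negative log2 fold change, from -0.012 in Musk to -2.446 in Chrna1. Of the 12, 4 (Myf5, Chodl, Vcam1 and Asb5) were called lower, against 1.07% of all genes called lower. Without vehicle replicate 1 the number was 3, against 3.37% of all genes called in either direction. By edgeR none of the 12 was called, against 0.186% of all genes, and 11 had an unadjusted p under 0.05, against 9.64%. Their summed level was 220.6, 186.6 and 154.2 CPM in IC replicates 1, 2 and 3, and 332.7, 378.4 and 280.6 in vehicle replicates 1, 2 and 3, so the groups did not overlap. Vcam1, an adhesion molecule that fibroblasts and endothelium also express, made up 30.6% to 54.2% of the sum. Without Vcam1 the other 11 markers summed to 136, 104 and 70.6 CPM in the IC libraries and 231, 259 and 168 in the vehicle libraries, again without overlap. Pax7, the transcription factor that defines satellite cells, averaged 367 ± 262 normalized counts in IC and 1217 ± 503 in vehicle libraries, with an adjusted p of 0.206. Myf5, a myogenic transcription factor, averaged 91.4 ± 62.7 normalized counts in IC and 385 ± 83.6 in vehicle libraries, with an adjusted p of 0.000122. Summed skeletal muscle markers were 21.4 to 41.2 CPM after IC and 37.7 to 88.5 after vehicle, with Myh1, Ttn and Actn3 called lower of 11 tested, all 11 negative. Endothelial markers were 258 to 345 against 355 to 408, with 3 of 12 called lower, and mural cell markers were 496 to 599 against 583 to 629, with 1 of 9 called lower. For the muscle, endothelial and mural lists too, the share of all genes called lower was 1.07%. Among fibroblast markers 1 of 12 was called higher and 2 lower, against 1.03% and 1.07% of all genes. Without vehicle replicate 1 the fibroblast markers called were 1 higher and 7 lower, Col1a1 among them, where 3.37% of all genes were called in either direction. None of 8 Schwann cell, 6 chondrocyte and bone, 4 macrophage and leukocyte or 4 adipocyte markers tested was called by DESeq2 or edgeR, and 1 of them, on the chondrocyte and bone list, had an unadjusted p under 0.05. The part of these cells in the H19 result was not tested.

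**Figure D3:**
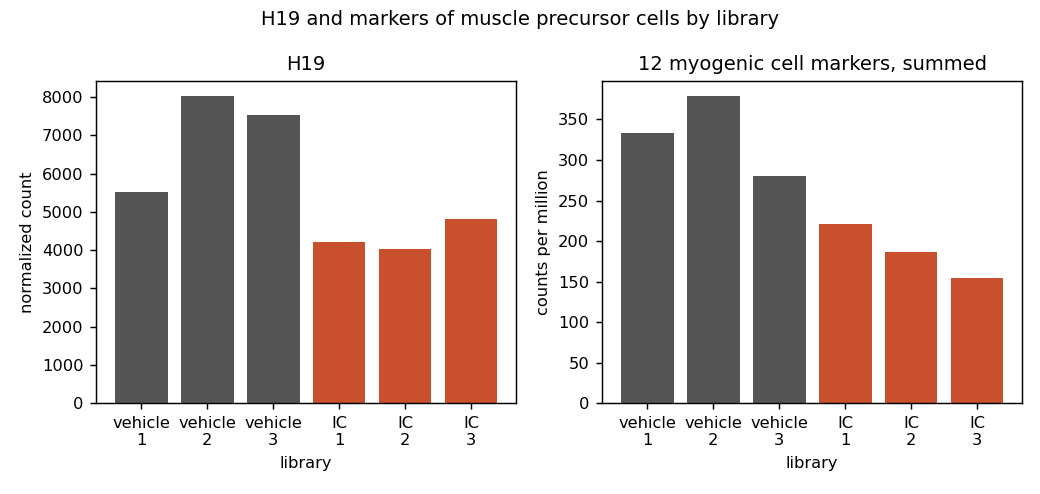
Bars from 0 show H19 in normalized counts (left) and the sum of 12 myogenic cell markers in CPM (right) in each library, vehicle in grey and IC in orange. In both, all vehicle bars stand above all IC bars. Within each group the order of the libraries differs between the panels. Among IC libraries replicate 3 is highest for H19 and lowest for the marker sum, while vehicle replicate 2 is the highest vehicle library in both. From 30.6% to 54.2% of the marker sum is Vcam1.

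H19 shares enhancers with Igf2, the growth factor gene 72.6 kb away that is expressed from the paternal copy. Igf2 was barely detected, at 46.9 ± 7.45 normalized counts in IC and 40.1 ± 14.3 in vehicle libraries, with an adjusted p of 0.962. Normalized H19 counts were 76.6 to 125 times those of Igf2 in IC libraries and 102 to 295 times in vehicle libraries, which overlapped. Of 15 tested genes on the list of the H19-Igf2 and Kcnq1ot1 domains, H19 was the one called by DESeq2, where 2.10% of all genes were. None was called by edgeR. An unadjusted p under 0.05 was given to 2 by each tool (9.8% of all genes by DESeq2 and 9.64% by edgeR).

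Neat1 is needed for paraspeckles, nuclear bodies that hold back edited RNAs and proteins and that enlarge in stressed or infected cells. Its normalized counts were 127876, 169813 and 97458 in IC replicates 1, 2 and 3 and 79815, 38695 and 54307 in vehicle replicates 1, 2 and 3. All IC libraries lay above all vehicle libraries, and the spread within each group was wide. The means were 131716 ± 36330 and 57606 ± 20758 (SD, n = 3 each), a ratio of 2.29. In log2 terms the difference was 1.19 ± 0.38, with a 95% interval of 0.452 to 1.934 and adjusted p 0.0577 in DESeq2 and 0.0856 in edgeR. Of the 6 fits that left out 1 library, Neat1 was called only in that without vehicle replicate 1. There the log2 fold change was 1.5 with adjusted p 0.00159 in DESeq2. Leaving out IC replicate 2, the highest, gave 0.97 and an adjusted p of 0.337. With 1 surrogate variable in the model it was 0.99 and 0.11.

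Neat1 has a short and a long form that share their first bases, and the table counts the gene as a whole. Neat1 counts were 9.32%, 11.9% and 7.9% of Malat1 counts in IC replicates 1, 2 and 3 and 6.25%, 3.65% and 4.61% in vehicle replicates 1, 2 and 3. This share, within each library, did not overlap between groups. On the log2 scale Neat1 ranged over 2.134 across the 6 libraries and Malat1 over 0.426, so the share mostly restates the Neat1 counts.

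Proteins that build paraspeckles were read from a list of 16. None was called by DESeq2, where 2.10% of all genes were, or by edgeR, and an unadjusted p under 0.05 was given to 2 by DESeq2 and 1 by edgeR (9.8% and 9.64% of all genes). Of the 16, 12 had a positive log2 fold change (49.6% of all genes), and the median was 0.093. Without vehicle replicate 1, Tardbp, an RNA-binding protein, was among those called higher, where 3.37% of all genes were called.

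Malat1 is among the most abundant RNAs of most mammalian cells and associates with active genes and splicing factors. Its normalized counts were 1372450, 1424120 and 1233310 in IC replicates 1, 2 and 3 and 1277740, 1059880 and 1177150 in vehicle replicates 1, 2 and 3. Vehicle replicate 1 lay above IC replicate 3, so the groups overlapped. Malat1 differed by 0.20 ± 0.09 on the log2 scale, with a 95% interval of 0.029 to 0.366 and adjusted p 0.291 in DESeq2 and 0.518 in edgeR. Without vehicle replicate 1 it was 0.26 (adjusted p = 0.0476), and leaving out vehicle replicate 2 gave 0.13 (adjusted p = 0.737).

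Of 21 tested nuclear speckle proteins none was called by DESeq2, with all 6 libraries or without vehicle replicate 1, or by edgeR. With all 6 libraries 19 of them had a positive log2 fold change, against 49.6% of all genes. An unadjusted p under 0.05 was found for 4 by DESeq2 and 3 by edgeR, against 9.8% and 9.64% of all genes. Srrm2, a core speckle protein with the highest counts of that list, averaged 44220 ± 3700 normalized counts in IC and 40400 ± 3190 in vehicle libraries. The genes whose pattern over the 6 libraries was nearest to that of Malat1 were Spred3, Nbeal2 and Sfpq, among 13434 genes with a mean of at least 100. Their root mean square differences from it were 0.019, 0.028 and 0.031 in centred log2 counts, where Malat1 itself varied by 0.141. These patterns are a description over 6 libraries.

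Meg3 (chr12:109541001-109571726), Rian (chr12:109603940-109661716) and Mirg (chr12:109729764-109749460) follow each other on the plus strand of the Dlk1-Dio3 imprinted domain, with gaps of 32.2 and 68.0 kb. They are expressed from the maternal copy, and Rian and Mirg are the precursors of arrays of C/D snoRNAs and microRNAs. Meg3 had 26961, 24096 and 21809 normalized counts in IC replicates 1, 2 and 3 and 25908, 17975 and 19936 in vehicle replicates 1, 2 and 3. Rian had 14894, 14362 and 13222 in the IC libraries and 14963, 11069 and 11586 in the vehicle libraries, in the same order. For both genes vehicle replicate 1 lay among the IC libraries or above them, while vehicle replicates 2 and 3 lay below all of them.

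With all libraries the log2 fold change was 0.19 ± 0.12 for Meg3, with an adjusted p of 0.605, and 0.175 ± 0.11 for Rian, with an adjusted p of 0.599. Without vehicle replicate 1 Meg3 was called higher at 0.36 with an adjusted p of 0.014. Rian was then called at 0.32 with an adjusted p of 0.00383. Both calls rested on leaving out this library. Without vehicle replicate 2 the values were 0.09 for Meg3 (adjusted p = 0.955) and 0.09 for Rian (adjusted p = 0.941). With all 6, the 95% intervals were -0.041 to 0.423 for Meg3 and -0.036 to 0.386 for Rian, and edgeR gave adjusted p-values of 0.728 and 0.708.

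Mirg, the last of the row, had 956, 773 and 793 normalized counts in the IC libraries and 924, 730 and 889 in the vehicle libraries. The groups lay over each other, with a log2 fold change of -0.01 ± 0.15, a 95% interval of -0.315 to 0.291 and an adjusted p of 0.995. Rian counts were 55.2% to 61.6% of Meg3 counts over the 6 libraries, and Mirg counts 3.21% to 4.46%. Meg3 and Rian differed by a root mean square of 0.051 in centred log2 counts, the smallest distance among the 45 pairs, and Malat1 and Rian by 0.081. The nearest other genes to Meg3 were Gm17823, Gm49258 and Gm43696 at 0.045, 0.049 and 0.05, where Meg3 itself varied by 0.207.

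Of 7 tested genes on the list of the Dlk1-Dio3 domain none was called by DESeq2 or edgeR, and none had an unadjusted p under 0.05 in either. Dlk1, a paternally expressed membrane protein, averaged 253 ± 65.7 normalized counts in IC and 290 ± 43 in vehicle libraries. Of 35 tested imprinted genes outside these domains none was called by either tool, with 7 at an unadjusted p under 0.05 in DESeq2 and 6 in edgeR (9.8% and 9.64% of all genes). Of these 35, 14 had a positive log2 fold change, against 49.6% of all genes, and 9 did not overlap between groups, against 15.8% of all. Decorin (Dcn), a matrix proteoglycan with the highest counts of that list, averaged 270400 ± 24700 normalized counts in IC and 303700 ± 30400 in vehicle libraries, with an adjusted p of 0.505. Without vehicle replicate 1, Sgce and Gnas were called lower.

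**Figure D4:**
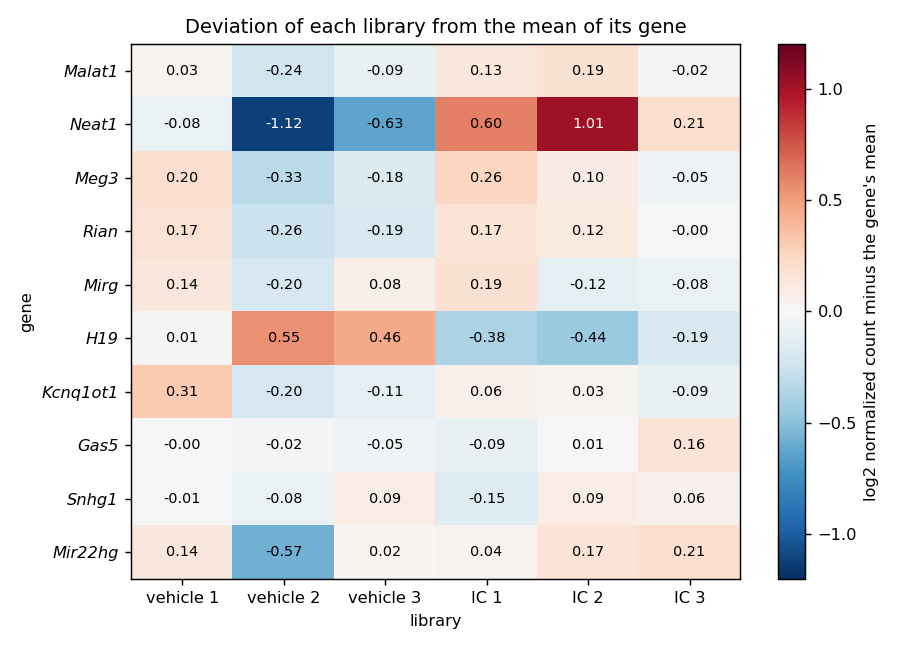
Colour and number give the log2 normalized count of each gene in each library minus that gene's mean over the 6 libraries. Neat1 spans from -1.12 in vehicle 2 to 1.01 in IC 2, H19 runs the other way, and vehicle 1 is above vehicle 2 and 3 for all of the genes except H19 and Snhg1, by a small margin in Gas5.

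Kcnq1ot1 (chr7:143203458-143296549, minus strand) is a paternally expressed antisense RNA that silences genes around Kcnq1, within which it lies. Its normalized counts were 13359, 13142 and 12083 in the IC libraries and 15958, 11152 and 11881 in the vehicle libraries. Vehicle replicate 1 was the highest of all and the other 2 vehicle libraries were the lowest. This gave a log2 fold change of -0.02 ± 0.12, with a 95% interval of -0.242 to 0.211 and an adjusted p of 0.99. Its target Cdkn1c, a cell cycle inhibitor, averaged 1642 ± 98 normalized counts in IC and 1627 ± 129 in vehicle libraries. Kcnq1, on the opposite strand, had a mean of 12.3 normalized counts, 0.0948% of those of Kcnq1ot1.

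Gas5 (chr1:161034422-161038539, plus strand) is a growth-arrest transcript whose spliced form is degraded when it is translated. It had 5263, 5634 and 6252 normalized counts in the IC libraries and 5600, 5519 and 5433 in the vehicle libraries. The 3 vehicle libraries lay within the range of the IC libraries. The log2 fold change was 0.05 ± 0.09, with a 95% interval of -0.122 to 0.224 and an adjusted p of 0.931. Zbtb37, on the opposite strand, overlaps Gas5 and had 47% of its counts, and the use of strand in counting is not given in the sources used here. The genes nearest in pattern to Gas5 were Src, Tcp1 and Eed at 0.008, 0.021 and 0.022, where Gas5 itself varied by 0.077.

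Snhg1 (chr19:8723475-8726443, plus strand), the host gene of U22 and other snoRNAs, had 2596, 3079 and 3005 normalized counts in the IC libraries and 2878, 2743 and 3084 in the vehicle libraries. The groups overlapped, with IC replicate 1 the lowest library and vehicle replicate 3 the highest. For Snhg1 the log2 fold change was -0.003 ± 0.1, with a 95% interval of -0.205 to 0.198 and an adjusted p of 0.998. Gas5 and Snhg1 thus had intervals that reached no further than 0.224 from 0 on the log2 scale. Of 24 tested snoRNA host genes none was called by either tool, with 3 at an unadjusted p under 0.05 in DESeq2 and 2 in edgeR (9.8% and 9.64% of all genes). Eef2, the elongation factor gene with the highest counts of that list, averaged 77260 ± 924 normalized counts in IC and 84590 ± 5660 in vehicle libraries, and was among those called lower without vehicle replicate 1.

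Mir22hg (chr11:75461539-75466676, plus strand) had 4045, 4421 and 4541 normalized counts in the IC libraries and 4325, 2649 and 4002 in the vehicle libraries. Vehicle replicate 2 lay far below the other 5, which lay close together. For Mir22hg the log2 fold change was 0.25 ± 0.14, with a 95% interval of -0.036 to 0.526 and adjusted p 0.561 in DESeq2 and 0.693 in edgeR. Without vehicle replicate 2 it was 0.06 (adjusted p = 0.955), and without vehicle replicate 1 it was 0.38 (adjusted p = 0.174). Tlcd2, which overlaps it on the same strand, had 16.7% of its counts.

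**Figure D5:**
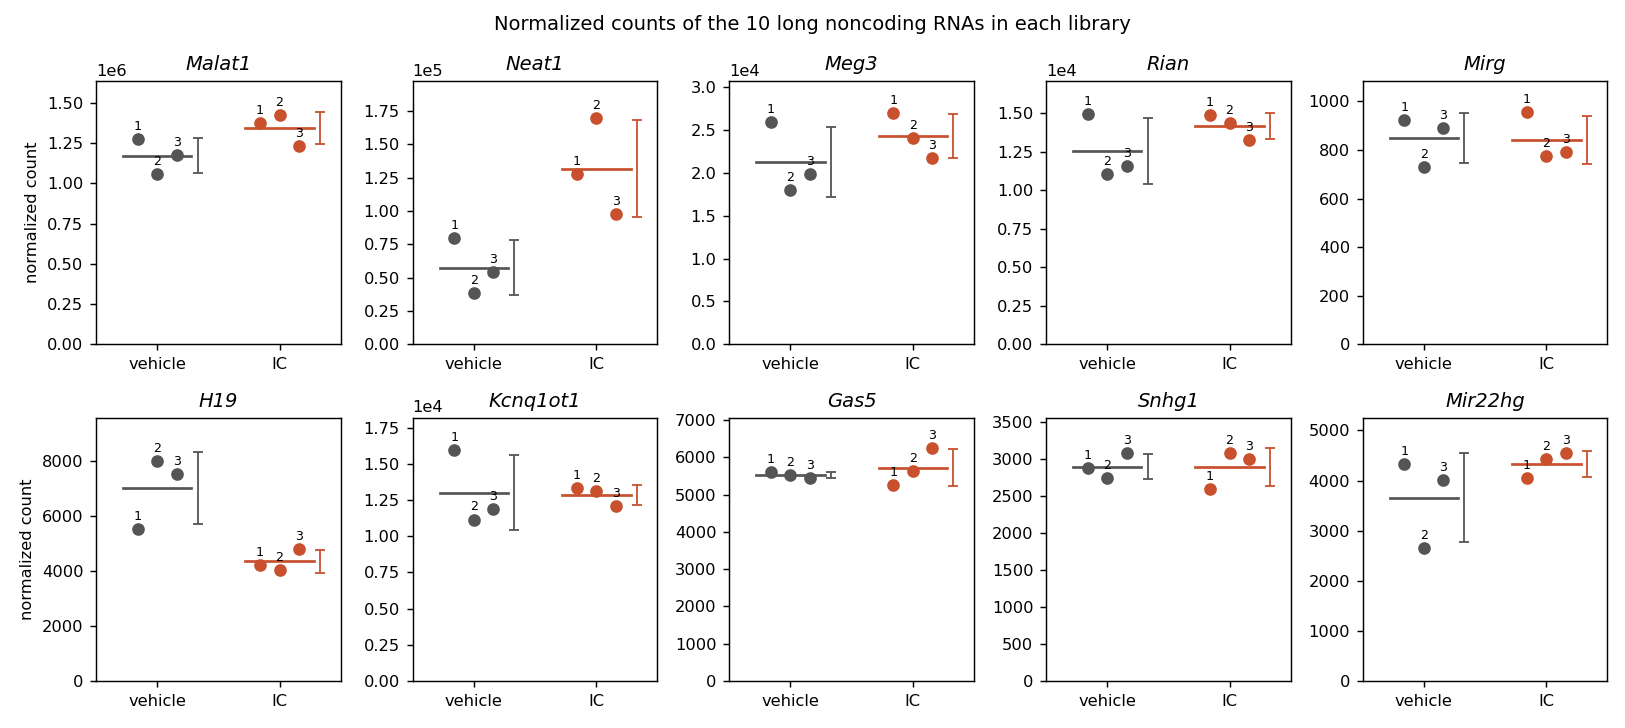
Normalized counts of the 10 genes on linear axes from 0, with 1 point for each library numbered by replicate, the group mean as a line and the SD as a bar at its side (n = 3 in each group). The points of vehicle and IC are apart for Neat1 and H19 and overlap for the other 8 genes.

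Of 12 tested microRNA host genes 1 was called, and it was called by both tools, which called 2.10% (DESeq2) and 0.186% (edgeR) of all genes. Dnm3os, the antisense precursor of miR-199a and miR-214, had 6703, 8769 and 7845 normalized counts in the IC libraries and 4884, 4415 and 4786 in the vehicle libraries, and the groups did not overlap. It rose by 0.73 ± 0.1 on the log2 scale, with adjusted p 2.185e-09 in DESeq2 and 0.0207 in edgeR. Without vehicle replicate 1, Mir17hg was called higher as well. Of 22 other tested long noncoding RNAs 1 was called by DESeq2, against the same 2.10%, namely Miat, a nuclear RNA that binds splicing factors. Miat had 3868, 4641 and 3922 normalized counts in the IC libraries and 3172, 2427 and 3105 in the vehicle libraries, again without overlap. It was higher by 0.51 on the log2 scale, with adjusted p 0.0018 in DESeq2 and 0.107 in edgeR.

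Among all annotated long noncoding genes 1992 were tested and 12 (0.602%) were called, 9 higher and 3 lower, H19 among the latter. Where counts of long noncoding genes averaged 100 or more, the share was 2.15% of 557. For all tested protein-coding genes, without that count limit, it was 2.72% of 14497.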

How the data were processed

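Transcripts of sorted synovial fibroblasts were measured in 3 IC and 3 vehicle libraries of total RNA, with groups and replicate numbers from the titles. The authors deposited raw counts of reads per gene after trimming with Trim Galore, aligning to mm10 with HISAT2 and counting with featureCounts. Tool versions, annotation and strand setting are not given in the sources used here. The library kit in the labels is not the kit in the study's methods.

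A gene entered the test with 10 or more counts in 3 or more libraries (19925 of 24348, and the 4423 left out held 0.0429% of counts). IC was compared with vehicle by the Wald test of DESeq2 (version 1.42.0), which the study's methods name, with treatment as the only term, unshrunken fold changes and a call at 0.05 after Benjamini-Hochberg adjustment. The adjusted value was missing for 3870 genes, mostly of low counts. edgeR (version 4.0.16), limma-voom (limma version 3.58.1), other scalings and filters, 1 surrogate variable (sva version 3.50.0, named in the study's methods without a number), the replicate number as a block, and each library left out were alternatives. List counts without vehicle replicate 1 were added after seeing the data. The tests were checked on simulated counts.

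Symbols were matched to GENCODE M21 (GRCm38) for 23899 genes (98.2%), and levels per kilobase used the union of exons. A read that overlaps several genes may have been left out or shared. The 10 genes and the lists were chosen with earlier results of these data known. The text names all 10 genes, the called genes and the highest-count gene of a list, and the 3 genes nearest in pattern to Malat1, Meg3 and Gas5. Lists were read by their counts, without a set test. Igf2, Dlk1, Cdkn1c, overlapping genes and genes called without vehicle replicate 1 were named with their values already seen. Some genes that this rule would name, and the comparison of neighbouring genes, are not reported here.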

Additional observations from a re-analysis of the deposited data

How the results depend on the processing

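Of the 160 log2 fold changes that alternatives gave for the 10 genes, 142 kept their direction and side of the threshold, 12 reversed, 4 were then called and 2 were no longer called. The number of the 10 genes called was 1 in 9 of the settings with all 6 libraries, counting the reported one, and 0 by edgeR and by limma-voom, where H19 had log2 fold changes of -0.69 and -0.67. Leaving out 1 library gave 1 to 5 called genes, with 5 without vehicle replicate 1 (Malat1, Neat1, Meg3, Rian and H19). That fit called 3.37% of all genes. All genes called were 419, against 37 by edgeR, 62 by limma-voom and 282 to 671 with 1 library left out. The causes were not tested. No gene that reversed was called in any setting. Snhg1 was 0.0023 with total-count scaling and 0.01 with the 10 genes left out of the totals, and Kcnq1ot1 was 0.0015 with the replicate block. With 1 library left out, Snhg1 ranged from -0.0511 to 0.068, Mirg from -0.1148 to 0.0544, Kcnq1ot1 from -0.1126 to 0.1582 and Gas5 from -0.0174 to 0.1068. Sharing a replicate number did not make libraries alike: the correlations of their deviations from the group means were -0.092, -0.164 and 0.025 over 13435 genes. The replicate block called 320 genes, H19 among them at -0.68 (adjusted p = 5.385e-06), with Neat1 at 1.21 (adjusted p = 0.469).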
